A study of Mus musculus with 2 samples.

Results

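The 10 genes described here encode the steps that turn mitochondrial citrate into palmitate, with the proteins that feed or adjust those steps. They were taken by name, Slc25a1, Acly, Acss2, Acaca, Acacb, Fasn, Me1, Thrsp, Mid1ip1 and Aacs, and each had reads, out of 15622 genes with at least 1 read. Of their 60 annotated transcripts, 35 had at least 1 read and 19 had at least 20 over both libraries.

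Brown fat from between the shoulder blades, a depot that produces heat, was the tissue, and its polyadenylated RNA was read directly, molecule by molecule, on a nanopore in 1 control library and 1 cold library. The mice were wild type males of strain C57BL/6N, 20 weeks old by the design text. The cold library pooled 3 mice that had each been caged alone for 24 h at 4 °C, and colony housing was at 22 to 24 °C. The size of the control pool is not given in the sources used here, and neither is single housing of the controls. The label of the control is its treatment field, "ctrl", although its protocol text repeats the cold treatment. The extraction text names epididymal white fat, while both libraries held many reads of the brown fat gene Ucp1, 14860 in the control against 14526 in the cold library.

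There were 1698124 control reads and 1215617 cold reads. Folds compare counts scaled by trimmed mean of M-values (TMM) library sizes, under which the median log2 ratio of the 7529 genes that had 20 or more reads over both libraries was 0.00. With total counts that median shifted to 0.17. Since each group had 1 library, spread between replicates is unknown and no test of the conditions was possible. Values in parentheses are exact 95% intervals for counting error alone, unless named otherwise.

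Fatty acid synthesis from sugar runs through citrate. The carrier encoded by Slc25a1 moves citrate from mitochondria to the cytosol, ATP citrate lyase splits it into acetyl-CoA and oxaloacetate, acetyl-CoA carboxylase makes malonyl-CoA, and fatty acid synthase joins malonyl units into palmitate with electrons from NADPH. Brown fat makes fatty acids as well as burning them, and malonyl-CoA also inhibits the entry of fatty acids into mitochondria.

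Upstream sequence is shown for Slc25a1, Acly and Fasn, since they had the 3 largest folds of the 10 and since the RefSeq start site of each coincides with the 5' end of its most abundant GENCODE form. All 10 genes had windows in the RefSeq table (11 windows, build GRCm38.p6), and each line gives the 250 bases before the start site, 5' to 3' on the gene's strand, which is the minus strand for all 3. The windows are chr16:17928220-17928469 for Slc25a1, chr11:100528001-100528250 for Acly and chr11:120824548-120824797 for Fasn. Capitals mark matches, on either strand, to CCAAT (the box bound by NF-Y), GGGCGG (the GC box bound by Sp1 family factors) or CACGTG (an E-box).
Slc25a1: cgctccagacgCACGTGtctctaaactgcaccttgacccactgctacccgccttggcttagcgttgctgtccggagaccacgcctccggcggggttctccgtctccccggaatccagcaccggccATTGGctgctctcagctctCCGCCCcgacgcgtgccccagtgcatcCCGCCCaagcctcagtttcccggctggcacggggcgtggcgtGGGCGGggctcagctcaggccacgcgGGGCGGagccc
Acly: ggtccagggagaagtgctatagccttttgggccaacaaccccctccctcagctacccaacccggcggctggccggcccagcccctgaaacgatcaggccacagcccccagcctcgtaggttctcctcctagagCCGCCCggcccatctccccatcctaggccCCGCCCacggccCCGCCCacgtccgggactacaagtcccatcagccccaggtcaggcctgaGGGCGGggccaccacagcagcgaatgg
Fasn: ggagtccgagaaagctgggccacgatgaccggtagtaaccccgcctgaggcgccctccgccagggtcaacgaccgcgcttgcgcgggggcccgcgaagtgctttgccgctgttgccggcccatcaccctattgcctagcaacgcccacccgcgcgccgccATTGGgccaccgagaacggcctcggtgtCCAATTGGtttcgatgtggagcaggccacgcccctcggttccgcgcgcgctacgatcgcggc

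The Slc25a1 window held 4 GC boxes, 1 CCAAT box and 1 E-box. Acly had 4 GC boxes and no other match, and Fasn had 3 CCAAT matches, of which the pair starting at -62 and -59 overlaps because CCAAT and its reverse complement share bases. Of the 11 windows of the 10 genes, 6 had a CCAAT match, against 33.8% of 32851 promoter windows in the table. For Me1 the match lay only in the window before its less abundant form, Me1-202. The windows of Acaca and Acacb lie before the starts of Acaca-201 and Acacb-201, not of the most abundant forms Acaca-202 and Acacb-202. A GC box was found in 5 of the 11 windows and in 32.7% of all windows, and an E-box in 1 of the 11 and in 6.02%. The sterol element searched, TCACNCCAC, matched none of the 11 windows and 1.05% of all. Sequence before the starts of Acaca-202 and Acacb-202 was not among these windows and was not searched. The 3 windows shown were 68.8 to 70% G and C, against a median of 52.4%. A GC box is itself made of these bases. These matches are descriptions of letters, and no binding was measured.

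All 10 genes had fewer scaled reads in the cold library, each with an interval below a ratio of 1. Across the 7529 genes, 11.3% had such an interval. In 8 of the 10 the difference was at least 2-fold, a size reached in the lower direction by 4.08% of genes. None was at least 2-fold higher, against 4.2% of all genes. The median log2 ratio of the 10 was -1.76, and that of all 7529 genes 0.00. Together they had 35494 reads in the control against 7965 in the cold library, or 2.09% (2.07 to 2.11) and 0.655% (0.641 to 0.670) of all reads. Their summed reads were 3.61-fold lower (3.53 to 3.70), and 3.29-fold lower (3.18 to 3.40) without Fasn. In this bulk tissue, fewer cells that make an RNA and less of it per cell cannot be told apart.

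**Figure D1:**
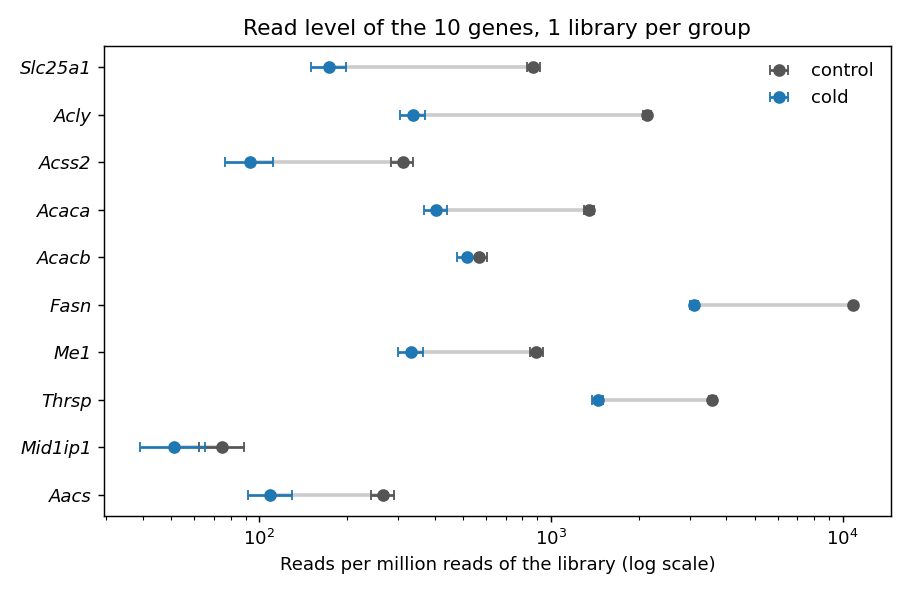
Reads per 1000000 library reads (RPM, horizontal log axis) of each gene in the control library (grey) and the cold library (blue), with exact 95% counting intervals and a grey line joining both. The control and cold intervals of 8 genes are separate, while those of Acacb and of Mid1ip1 overlap.

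Export of citrate was represented by Slc25a1 (chromosome 16, 17925223 to 17928219, minus strand). It had 1477 control reads and 211 cold reads, or 870 (826 to 915) and 174 (151 to 199) reads per 1000000 library reads (RPM). In TMM-scaled reads, Slc25a1 was 5.68-fold lower (4.91 to 6.59). It ranked 116th by reads in the control library and 625th in the cold library. All but 1 of its reads were of a single form, Slc25a1-201.

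Acly, the cytosolic lyase that follows it (chromosome 11, 100476353 to 100528000, minus strand), showed the largest fold among the 10. Its reads were 3626 in the control against 410 in the cold library, from 2135 (2066 to 2206) to 337 (305 to 372) RPM. In TMM-scaled reads, Acly was 7.17-fold lower (6.47 to 7.96). Of the 308 genes with 1000 or more reads in all, Acly had the lowest ratio and Slc25a1 the second lowest. Among all genes with 20 or more reads over both libraries, Acly ranked 13th from the lowest ratio and Slc25a1 20th. In reads alone, Slc25a1 made up 28.9% (27.7 to 30.2) of the reads of both genes in the control against 34.0% (30.3 to 37.9) in the cold library. The difference of 5.03 percentage points had a Newcombe interval of 1.20 to 9.04, so Acly was the lower of the pair by a small margin.

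Acss2 and Aacs supply the same pathway from other fuels. Acss2, which makes cytosolic acetyl-CoA from acetate (chromosome 2, 155517948 to 155585724, plus strand), had 527 and 113 reads and was 3.78-fold lower (3.08 to 4.68). Aacs, which activates the ketone body acetoacetate in the cytosol for lipid synthesis (chromosome 5, 125475814 to 125517410, plus strand), had 451 and 133 reads and was 2.75-fold lower (2.26 to 3.36). Acly made up 87.3% (86.3 to 88.3) of Acly and Acss2 reads in the control against 78.4% (74.6 to 81.8) in the cold library, a difference of -8.92 points (Newcombe interval -12.8 to -5.44). The balance between the citrate and acetate routes to acetyl-CoA was thus less weighted to Acly in the cold library, at the level of RNA. Exons of Gss, on the other strand, share 395 bases with Acss2, and Gss had 23 and 35 reads.

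The paired acetyl-CoA carboxylases had unlike ratios. Acaca, the cytosolic enzyme ACC1 (chromosome 11, 84129672 to 84401651, plus strand), had 2297 reads in the control against 491 in the cold library, 3.79-fold lower (3.44 to 4.19). Acacb, ACC2, which sits at the mitochondrial outer membrane and makes the malonyl-CoA that restrains fatty acid import (chromosome 5, 114146535 to 114250761, plus strand), had 961 and 627 reads, 1.24-fold lower (1.12 to 1.38). Acacb stood at 566 (531 to 603) and 516 (476 to 558) RPM. With total counts its ratio was 0.911 (0.823 to 1.01), so that its interval no longer excluded 1.

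Acaca accordingly went from 70.5% (68.9 to 72.1) of the reads of both carboxylases in the control to 43.9% (41.0 to 46.9) in the cold library. The difference of -26.6 points (Newcombe interval -29.9 to -23.3) does not depend on scaling. By RNA reads, ACC1 was the more read enzyme in the control and ACC2 in the cold library. Skeletal muscle markers were higher in the cold library, at 309 RPM in the control and 1601 RPM in the cold. The part of muscle RNA in the Acacb reads was not tested. The annotated gene Gm5182 shares 56.8% of the 31-base words of Acaca-202, but only 2 reads in the control against 0 in the cold library were assigned to it.

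Fasn, the multi-domain synthase that makes palmitate (chromosome 11, 120805846 to 120824547, minus strand), carried the most reads of the group. It had 18437 in the control, where it ranked 17th of all genes, and 3758 in the cold library, where it ranked 29th. It was 3.98-fold lower (3.84 to 4.12). Its share of the group's reads was 51.9% (51.4 to 52.5) and 47.2% (46.1 to 48.3). The balance with Acaca was close in both libraries. Among reads of Acaca and Fasn, Acaca took 11.1% (10.7 to 11.5) in the control against 11.6% (10.6 to 12.6) in the cold library, a difference of 0.477 points with a Newcombe interval of -0.546 to 1.56. Acss2 was likewise 2.78% (2.55 to 3.02) and 2.92% (2.41 to 3.50) of Acss2 and Fasn reads.

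Me1, the cytosolic malic enzyme that returns carbon as pyruvate and yields NADPH (chromosome 9, 86581371 to 86695953, minus strand), had 1513 and 402 reads, 3.05-fold lower (2.73 to 3.42). This was a smaller fold than that of Fasn. Me1 made up 7.58% (7.22 to 7.96) and 9.66% (8.78 to 10.6) of Me1 and Fasn reads, a difference of 2.08 points (Newcombe interval 1.14 to 3.08). The annotated gene Gm7049 shares 33.7% of the 31-base words of Me1-201 and had no reads in either library.

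Thrsp and Mid1ip1 encode the paired regulators Spot 14 and MIG12, which bind each other and modulate the polymerisation of acetyl-CoA carboxylase. Thrsp (chromosome 7, 97412938 to 97417730, minus strand) was abundant, with 6078 and 1758 reads, and 2.80-fold lower (2.66 to 2.96). Mid1ip1 (chromosome X, 10715013 to 10719690, plus strand) was sparse, with 127 and 62 reads, and 1.66-fold lower (1.22 to 2.29). Of the reads of both, Thrsp made up 98.0% (97.6 to 98.3) in the control against 96.6% (95.7 to 97.4) in the cold library, a difference of -1.36 points (Newcombe interval -2.35 to -0.526). Among reads of Thrsp and Fasn, Thrsp went from 24.8% (24.3 to 25.3) to 31.9% (30.6 to 33.1).

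**Figure D2:**
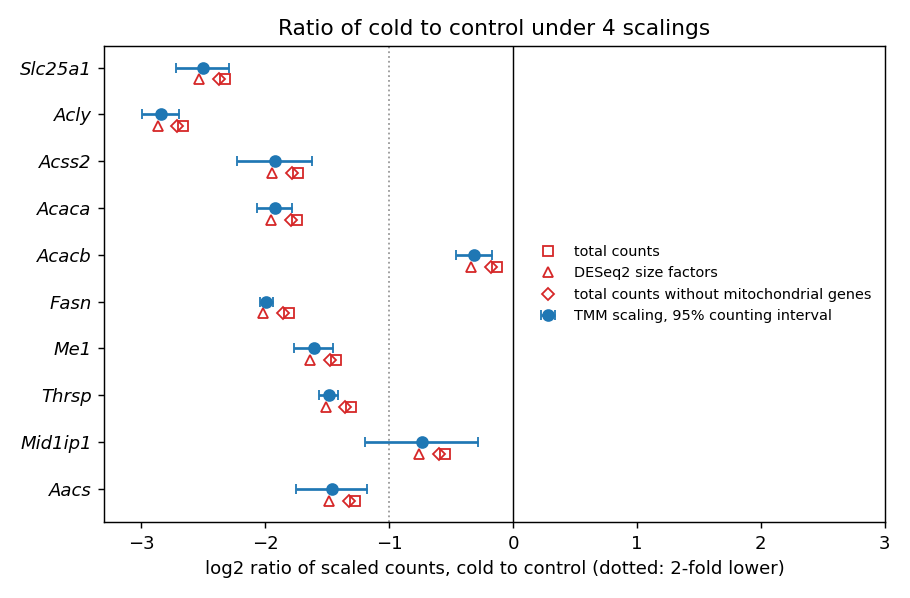
Log2 ratio of cold to control (horizontal axis) of each gene with its 95% counting interval under TMM scaling (blue) and under 3 other scalings (red, without intervals). All points lie below 0, from -2.84 for Acly to -0.31 for Acacb under TMM, and Acacb and Mid1ip1 lie to the right of the dotted line at a 2-fold lower ratio.

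Beyond counting error, the 10 genes were therefore not lower by 1 common factor, though spread between replicates is unknown. Of their 45 pairs, 37 had a balance of reads whose Newcombe interval for the difference excluded 0, without adjustment for the number of pairs. The 8 pairs that did not were Acss2 with Acaca, Fasn or Me1, Acaca with Fasn, Acacb with Mid1ip1, Me1 with Thrsp or Aacs, and Thrsp with Aacs. Ordered by fold, Acly and Slc25a1 came first, then Fasn, Acaca and Acss2 close together, then Me1, Thrsp and Aacs, and last Mid1ip1 and Acacb. That an interval included 0 does not show that the ratios were equal, as for Acss2 and Me1, where it ran from -7.77 to 0.313 points. The 45 pairs share genes and so are not independent, and no share over pairs of all genes stands beside the 37.

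**Figure D3:**
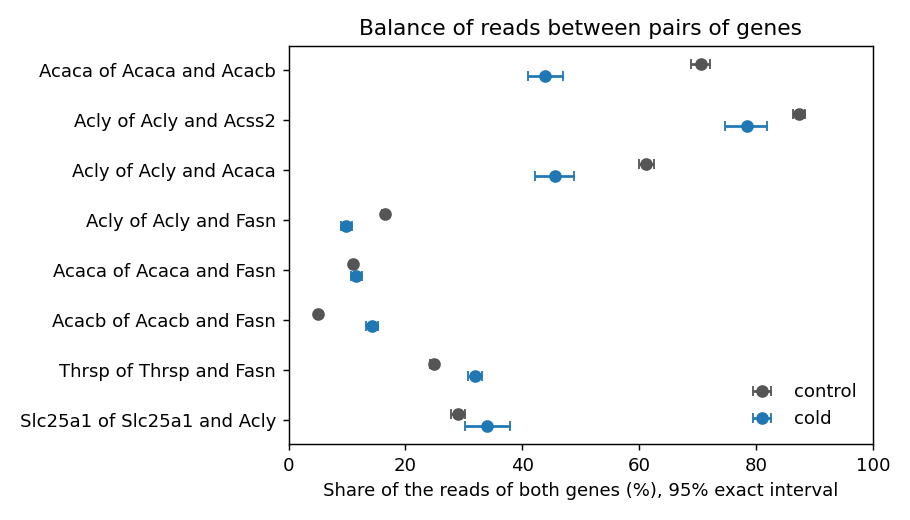
Share of the reads of both genes taken by the first gene of each pair (horizontal axis, percent) in the control (grey) and cold (blue) libraries, with exact 95% intervals. Of the 8 pairs plotted, Acaca against Acacb shows the widest gap, 70.5% against 43.9%, and Acaca against Fasn the narrowest, 11.1% against 11.6%.

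Levels between genes were also compared per kilobase of the most abundant form. In direct RNA sequencing each read stands for 1 molecule whatever its length, so that scale does not rank genes by molecules. The order by reads was another one, with Fasn above Thrsp in both libraries (18437 and 6078 control reads, 3758 and 1758 cold reads) and, in the cold library, Acacb (627), Acaca (491) and Acly (410) next. On this scale of RPM per kilobase, Thrsp was highest in both libraries, at 2803 (2733 to 2874) and 1132 (1080 to 1187), followed by Fasn at 1080 (1065 to 1096) and 308 (298 to 318). In the control Slc25a1 and Acly followed at 522 (496 to 549) and 482 (467 to 498), with intervals that overlap, then Me1 at 271, Acaca at 142, Acss2 at 106, Aacs at 82.0, Acacb at 64.4 and Mid1ip1 at 37.0. In the cold library the order on this scale changed. Slc25a1 at 104 (90.6 to 119) and Me1 at 101 (91.0 to 111) could not be ranked per kilobase. By reads Me1 was higher there, with 402 against 211. Acly stood at 76.2, Acacb at 58.7 and Acaca at 42.5. Aacs at 33.8, Acss2 at 31.7 and Mid1ip1 at 25.3 had intervals that overlap their neighbours'.

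Fasn, Acaca and Acacb have forms of 8788 to 10050 bases, the longest of the group, while Thrsp-201 has 1277. Across all genes the median ratio was near 1 in each class of length examined. The 363 genes whose most abundant form is at least 8000 bases long had a median log2 ratio of 0.01, and 4.96% of them were at least 2-fold lower. Of 2352 genes below 2000 bases the median was -0.07, with 4.25% at least 2-fold lower.

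Transcript forms were compared next, to see whether a gene's lower reads came with a different mix of forms. Counting error covered each difference in share that could be examined. Of 13 forms compared (20 or more reads, in genes with 100 or more reads per library and several such forms), 0 had a share whose Newcombe interval for the difference excluded 0, against 11.7% of 2013 forms over all genes. Of the 19 forms with at least 20 reads, 18 had a ratio with an interval below 1, against 10.6% of all 9185 transcripts of that depth. In 14 of them the reads were at least 2-fold lower, against 4.53% of those transcripts. The remaining form was Mid1ip1-202, with 36 and 16 reads and an interval of 0.987 to 3.52 for its fold of 1.82 lower. Reads start at the poly(A) end, so forms that differ only near the 5' end can be told apart only by reads that reach it, and how the authors assigned shorter reads is not given in the sources used here.

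Acly has a form choice at an internal exon, which is described with sequence. Exon 14 of 29 in Acly-203, chr11:100503160-100503189 on the minus strand of GRCm38, lies wholly in the coding sequence, 2738 bases from the 3' end, and is absent from Acly-201 and Acly-207. It is shown because it is the only internal exon that separates the major Acly forms:
Acly exon 14: attcagtcccaagtccaagatccctgcaag
The form with this exon took 55.0% (53.4 to 56.6) of Acly reads in the control against 56.3% (51.4 to 61.2) in the cold library. These are shares of reads as the authors assigned them. Reads too short to reach the exon from the 3' end cannot tell the forms with and without it apart. Acly-203 had 1995 and 231 reads, Acly-201 had 905 and 110, and Acly-207, which starts further downstream, had 716 and 69. The folds were 7.0 (6.11 to 8.06), 6.67 (5.47 to 8.21) and 8.41 lower (6.57 to 10.9), with intervals that overlap. Reads of the forms with and without the exon were all lower in the cold library.

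Acaca reads were split over Acaca-202 and Acaca-201, which differ only upstream of the 9026 bases of Acaca-201. Acaca-202 took 78.7% (76.9 to 80.3) in the control against 79.0% (75.1 to 82.5) in the cold library. Acacb reads fell on Acacb-202 (393 and 272), Acacb-201 (275 and 173) and Acacb-204 (292 and 182), the last being annotated as a retained intron and starting inside the gene. Their folds were 1.17 (1.00 to 1.37), 1.29 (1.06 to 1.57) and 1.30 lower (1.08 to 1.57), so all 3 had small folds. Retained-intron forms took 0.944% of the group's reads in the control against 2.35% in the cold library. Acacb-204 alone gave 292 of 335 and 182 of 187 of these reads. Its share of Acacb reads was not higher with cold, at 30.4% against 29.0%, a difference of -1.36 points (Newcombe interval -5.89 to 3.27). Reads too short to pass the 6372 bases that Acacb-204 shares with Acacb-202 at the 3' end cannot tell these forms apart. Whether intron retention differed was not tested.

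The main form of Fasn, Fasn-201, took 96.1% (95.8 to 96.4) of reads in the control against 96.1% (95.4 to 96.7) in the cold library. Me1-201 took 90.4% (88.8 to 91.9) and 91.3% (88.1 to 93.9). Thrsp-201, Acss2-201 and Aacs-201 each held over 97% of their gene's reads in both libraries. Mid1ip1-201 had 91 and 46 reads, and at that depth its share could have differed by -11.5 to 15.0 points.

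**Figure D4:**
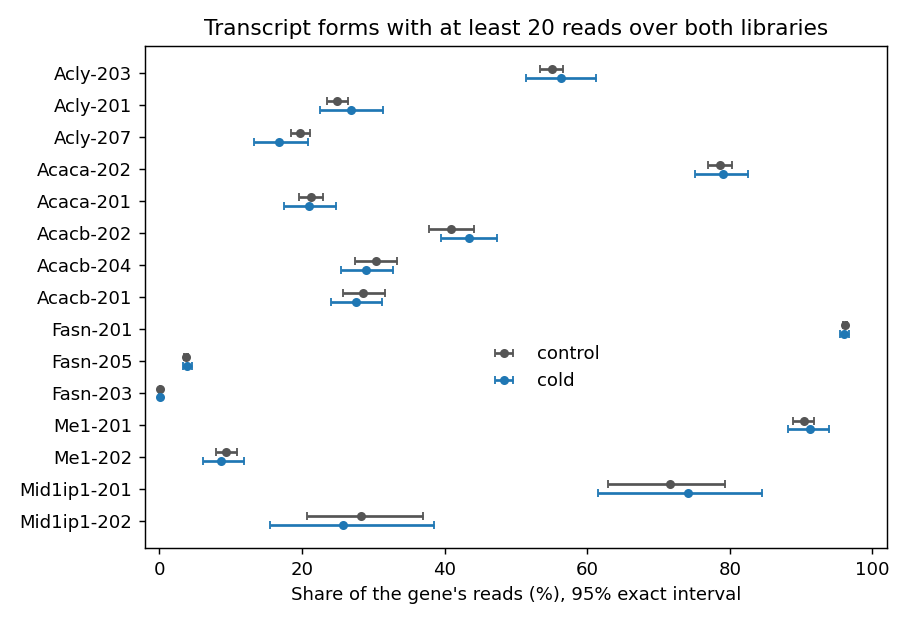
Share of a gene's reads (horizontal axis, percent) taken by each form with at least 20 reads, for genes with several such forms, in the control (grey) and cold (blue) libraries with exact 95% intervals. The intervals of both libraries overlap for every form shown, including Acly-203 at 55.0% and 56.3%.

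Genes around the pathway were described from 5 lists. Over all 7529 genes with 20 or more reads, 11.3% had an interval below 1 and 11.3% one above 1. The NADPH supply list had 10 of its 11 genes with at least 20 reads. Their median log2 ratio was -0.40, with 5 intervals below 1, 0 above, and 2 genes at least 2-fold lower. Tkt, the transketolase of the pentose phosphate pathway, had 5977 and 1523 reads and was 3.18-fold lower (3.01 to 3.37), and Taldo1, the transaldolase, had 2112 and 837 and was 2.05-fold lower (1.89 to 2.22). The pathway's NADPH-yielding dehydrogenases showed smaller differences, as G6pdx, its entry enzyme, was 1.44-fold lower (1.21 to 1.73). Idh1, the cytosolic isocitrate dehydrogenase, had a ratio of 0.968 (0.792 to 1.18), Me3 of 0.863 (0.513 to 1.43) and Rpia, the ribose phosphate isomerase, of 1.05 (0.651 to 1.69). The 11 genes took 6054 and 3058 RPM. Most of that sum was Tkt and Taldo1, which are not among the NADPH-yielding dehydrogenases. Tkt alone gave 5977 of the list's 10280 control reads and 1523 of its 3717 cold reads.

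Citrate and oxaloacetate supply and return had a median of -0.11 over 10 of 12 genes, which turned to 0.065 with total counts and 0.02 when mitochondrially encoded genes were left out of those counts. Intervals lay below 1 for 5 genes and above for 1, or 2 and 3 with total counts, and none of the 10 was 2-fold apart. The mitochondrial pyruvate carrier subunit Mpc1, with 3346 and 1592 reads, was 1.70-fold lower (1.61 to 1.81). Pyruvate carboxylase, Pcx, was 1.33-fold lower (1.16 to 1.54), and cytosolic aconitase, Aco1, 1.30-fold lower (1.01 to 1.68). Cytosolic malate dehydrogenase, Mdh1, was 1.15-fold higher (1.07 to 1.24), while Mdh2 had a ratio of 1.07 (0.994 to 1.15) and the oxoglutarate carrier Slc25a11 of 1.01 (0.851 to 1.20).

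Other enzymes of acetyl-CoA and ketone bodies had a median of 0.00 over 10 of 12 genes, turning to -0.02 with DESeq2 size factors, with 4 intervals above 1 and 1 below. Acss1, the mitochondrial counterpart of Acss2, had 90 and 149 reads and was 2.04-fold higher (1.56 to 2.68). The same list held Oxct1, which activates ketone bodies for oxidation, at 1.51-fold higher (1.15 to 1.97), and Crat, which exchanges acetyl groups with carnitine in mitochondria, at 1.41-fold higher (1.27 to 1.56). Acat2, a cytosolic thiolase, was 1.54-fold lower (1.25 to 1.91). Acss3 had a ratio of 0.664 (0.404 to 1.07) and the acetyl-CoA transporter Slc33a1 of 0.832 (0.501 to 1.36). Cytosolic Acss2 and mitochondrial Acss1 thus stood on opposite sides of a ratio of 1.

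Genes that load, turn over or phosphorylate the carboxylases and the synthase had a median of 0.12 over 10 of 17 genes, turning to -0.02 over genes with at least 1 read. Intervals lay above 1 for 3 genes and below for 1. Mlycd, malonyl-CoA decarboxylase, which removes the carboxylases' product, had 223 and 346 reads and was 1.91-fold higher (1.61 to 2.27). Prkaa2, a catalytic subunit of the AMP-activated kinase that phosphorylates both carboxylases, was 2.40-fold higher (1.32 to 4.50) on 18 and 35 reads, and its regulatory subunit Prkab1 1.93-fold lower (1.32 to 2.86) on 95 and 40. The adaptor Trib1 was 1.50-fold higher (1.04 to 2.17). Stk11, an upstream kinase, had a ratio of 0.959 (0.748 to 1.23) and the biotin recycling enzyme Btd of 0.967 (0.623 to 1.49).

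Mitochondrial fatty acid synthesis, a separate route that serves lipoate, had a median of -0.26 over 8 of 10 genes, with 2 intervals below 1 and 0 above, or 0 and 1 with total counts, and no gene 2-fold apart. Ndufab1, its acyl carrier protein and also a complex I subunit, had 1619 and 1104 reads and was 1.19-fold lower (1.10 to 1.28). Lias, which makes lipoate, was 1.41-fold lower (1.02 to 1.94). The other genes named by rule had intervals that included 1, with ratios of 0.747 for Oxsm, 0.815 for Mcat, 0.934 for Acsf3, 1.17 for Mecr and 1.28 for Lipt1.

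**Figure D5:**
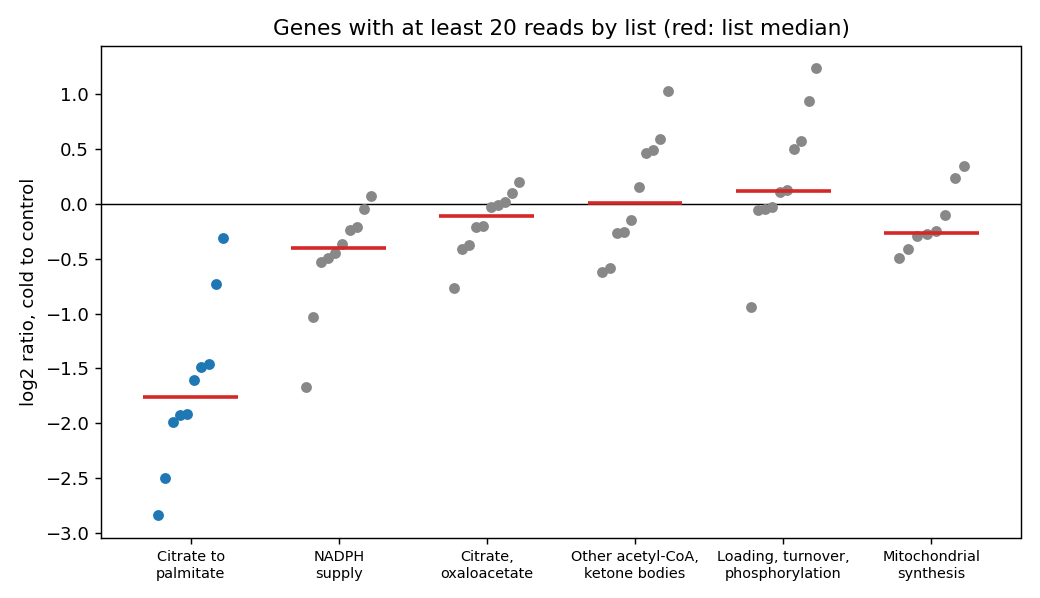
Log2 ratio of cold to control (vertical axis) of every gene with at least 20 reads in the 10 genes (blue) and 5 surrounding lists (grey), sorted within each, with list medians in red. The median of the 10 genes is -1.76, and the medians of the surrounding lists run from -0.40 to 0.12.

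Among 587 other genes of 500 or more reads in all, 3 had a log2 ratio at or below the median of the 10. The 6 nearest to that median were Mmd, Tkt, Fabp5, Lgals1, Car3 and Scd1. Their folds were 3.39 (2.75 to 4.20) for Mmd, 3.18 for Tkt, 3.18 (2.59 to 3.92) for Fabp5, 2.62 (2.36 to 2.92) for Lgals1, 4.47 (4.02 to 4.98) for Car3 and 4.52 lower (4.37 to 4.67) for Scd1. With 2 libraries this likeness rests on a single ratio per gene.

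Markers of the cells in the tissue were measured beside these results. Of all 7529 genes, 11.3% had an interval above 1 and 4.2% were at least 2-fold higher. General adipocyte markers took 16113 RPM (15924 to 16304) in the control against 22207 (21946 to 22470) in the cold library, with 5 of 8 intervals above 1 and 2 below, those of Adipoq and Lipe. Fabp4 alone gave 20610 of the list's 27362 control reads and 20787 of its 26995 cold reads. With TMM scaling the ratio of the summed reads was 1.22 (1.20 to 1.24). Skeletal muscle markers, 10 of 10 at least 2-fold higher, took 309 (283 to 336) and 1601 (1531 to 1674) RPM. Brown adipocyte markers took 14434 (14255 to 14615) and 19325 RPM (19081 to 19571), with 6 of 10 intervals above 1 and 1 below. Ucp1 alone gave 14860 of that list's 24511 control reads and 14526 of its 23492 cold reads, and the TMM-scaled ratio of the sum was 1.18 (1.16 to 1.20). For white adipocytes the 8 markers summed to 117 (101 to 134) and 323 (292 to 357) RPM, with Hoxc9, Hoxc10 and Wt1 at 0 reads. Of the 3 with at least 20 reads, 1 interval lay below 1 and 2 above. Lep, which encodes leptin, had 36 and 5 reads and was 5.84-fold lower (2.28 to 19.1), while Retn and Npr3 had ratios of 2.08 (1.53 to 2.84) and 3.73 (2.91 to 4.81). Npr3 gave 86 of the 198 control reads of the list and 260 of its 393 cold reads. Hepatocyte and mammary epithelial markers, for other lipid-making cells, had 0 reads for 7 of 7 genes in both libraries, which allows up to 3 reads in each by counting error. Median log2 ratios were 0.34 for 5 endothelial markers, -0.17 for 4 fibroblast markers and 0.83 for the 1 macrophage marker that could be measured. The part of cell makeup in the lower reads of the 10 genes, or in the balance between them, was not tested.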

How the data were processed

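Read counts per transcript were deposited by the authors as whole numbers without normalization, with no entry at 0. Per the submitters' processing notes, minimap2 and GRCm38 were used. The minimap2 version, the annotation release and the handling of reads that match several transcripts were not given in the sources used here. Transcript identifiers without version were matched to GENCODE mouse M21 (GRCm38), from which gene coordinates come, counted from 1. Unmatched transcripts held 0.0571% of control and 0.0652% of cold reads and stayed in the library size. Counts were summed to genes and scaled with edgeR 4.0.16 TMM factors (0.940 and 1.06). Ratios are cold to control, with exact Clopper-Pearson intervals of the cold share. Log2 ratios used a prior of 0.5 reads. Intervals cover counting error only, and the script was checked on simulated counts. Genes were called with at least 20 summed reads, an interval excluding 1 and, where stated, a 2-fold difference. Share differences have Newcombe intervals. Alternatives were total counts, DESeq2 1.42.0 size factors, totals without mitochondrial genes, main or coding forms only, and other read minimums and priors.

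The members, lists and rules were chosen with earlier results of these data known. Named are all 10 genes and, per surrounding list, up to 3 highest and 3 lowest ratios with at least 50 reads and the most abundant gene. A gene that this rule names is not reported here. Lipt2, Bdh1 and Slc25a12 were named after their values were seen. Promoter sequences are RefSeq's, and a planned comparison of proteins was not run.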

Additional observations from a re-analysis of the deposited data

How the results depend on the processing

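Under the alternatives run, all 10 genes kept a ratio below 1, and the count of genes at least 2-fold lower was 8 under each scaling and choice of forms. The interval of Acacb reached past 1 with total counts only, leaving 9 genes with an interval below 1. The median log2 ratio of the 10 ranged from -1.79 with DESeq2 size factors to -1.58 with total counts. The ratio of Fasn ranged from 0.247 to 0.285 and that of Acly from 0.137 to 0.158. The background depended more on these choices. Genes at least 2-fold apart numbered 307 lower and 316 higher, but 189 and 522 under total counts, 218 and 450 when those totals left out mitochondrial genes, and 63 and 93 over genes with at least 100 reads, where fewer genes enter. The median of citrate and oxaloacetate supply turned from -0.11 to 0.065 with total counts. Shares between forms or genes do not depend on scaling. Depth limits Mid1ip1 most, with 127 and 62 reads. No paired analysis was possible because each group has 1 library.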

Other observations

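Some sparse genes of the surrounding lists had large ratios that the minimum of 20 summed reads left out. Bdh1, which interconverts the ketone bodies, was at 0 control reads and 18 cold reads. The exact 95% interval of its ratio starts at 5.42 and has no upper end. Slc25a12, an aspartate and glutamate carrier of mitochondria, had 2 and 11 reads, a ratio of 6.78 (1.48 to 63.0). Lipt2, which moves octanoyl groups for lipoate synthesis, had 17 and 2 reads and was 6.89-fold lower (1.64 to 61.5).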
